A study of Mus musculus with 62 samples.

Results

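Translation efficiency (TE), the density of ribosome footprints on an mRNA relative to the abundance of that mRNA, was compared between C2C12 cells that overexpress RPL3L (RPL3L OE) and C2C12 cells that overexpress RPL3 (RPL3 OE). C2C12 cells are mouse myoblasts, the proliferating precursors of muscle fibers, kept as a line. They had been infected with a pCX4/puro retrovirus carrying the mouse RPL3L or RPL3 cDNA, selected with puromycin and kept at low confluence under proliferative conditions, so both groups share the vector, the selection and their endogenous *Rpl3* gene. Both are infected populations, and nothing given about them describes single clones. The comparison used 12 of the 62 samples of the series, namely 3 RNA-seq and 3 Ribo-seq libraries per group, and its members are the 5487 genes, of 10691 with a line in the count table (10476 gene names and 215 transcripts without a matched name), whose count averaged 10 or more in both assays. Control cells with the empty vector (3 libraries per assay) are used only for values set beside the comparison.

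RPL3 is a core protein of the large ribosomal subunit that reaches toward the peptidyl transferase center, where peptide bonds form. RPL3L is its paralog in heart and skeletal muscle and takes the place of RPL3 in a share of the ribosomes of those tissues. The comparison sets the paralogs against each other, with a ribosomal protein cDNA overexpressed in both groups. In Ribo-seq the mRNA fragments shielded by ribosomes during RNase I digestion are sequenced, whereas RNA-seq gives the level of each mRNA. A TE difference is the group difference in Ribo-seq minus the group difference in RNA-seq, on the log2 scale.

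Total counts were between 7647102 and 11669868 per RNA-seq library and between 3528147 and 6093268 per Ribo-seq library. Levels are given as CPM, counts scaled to library size, here over the tested transcripts and with TMM within each assay. The chi-square per degree of freedom between libraries of a group lay between 1.38 and 2.23, above the 1 of sampling noise. The paper describes the 3 samples of each C2C12 group as biologically independent. The labels only number the libraries, and whether they came from separate infections is not given. The p-values measure the spread between these libraries. Of 8 myoblast markers, 4 have a line (*Myod1*, *Cdh15*, *Des* and *Itga7*), and all 4 differed in RNA-seq: their summed level, in CPM over all counts of a library, was 485 to 529 in RPL3 OE libraries and 831 to 848 in RPL3L OE libraries. The 8 markers of differentiated muscle with a line summed to 7.46 to 8.78 and 13.5 to 15.4, respectively, and the 4 cardiomyocyte markers with a line, *Tnnt2* among them, to 251 to 256 and 282 to 299. Of the 8 and the 4, 1 and 2 had no count in any of these RNA-seq libraries. Of the 3 adipocyte markers with a line, 2 had no count in these RNA-seq libraries and 1 passed the count filter. Their sum went the other way, with 41.9 to 49.5 in RPL3 OE and 32.9 to 37.3 in RPL3L OE libraries. Markers of endothelial, immune, epithelial and neuronal cells reached at most 2.06 in RNA-seq and 3.61 in Ribo-seq. The part of these marker differences in the results that follow was not tested. *Rpl3* is not analysed here, because all matched transcripts of the table lie on the plus strand.

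As examples, the start sites of 4 mRNAs with a higher and 4 with a lower TE in RPL3L OE cells are printed, since this is where ribosomes begin translation. Each is given in the sense of the mRNA (plus strand, GRCm38, GENCODE M21), with 6 bases of the leader, the start codon in capitals and 6 bases of coding sequence.
*Ppil4* (chr10:7792951-7792953): ggcgccATGgcggtt
*Gid8* (chr2:180713203-180713205): atcataATGagttat
*S100a4* (chr3:90605012-90605014): gttaccATGgcaaga
*S100a10* (chr3:93560964-93560966): ttcaaaATGccatcc
*Igfbp2* (chr1:72824580-72824582): gccaacATGctgccg
*Agap1* (chr1:89630394-89630396): ttcgccATGtgggtg
*P4ha2* (chr11:54110227-54110229): ccagttATGaagctc
*Ptgs1* (chr2:36230563-36230565): agagtcATGagtcga
The coordinates are those of the start codon. Among 5287 tested genes with an annotated start site, 86.4% have a purine (A or G) at the third base before the start codon and 53.9% have a G right after it. A purine is present in 11 of 13 mRNAs with a higher TE and in 7 of 9 with a lower TE, and a G in 5 and 2, respectively. These are descriptions of the annotated sites, in which *Cox17* and *Gm21987* share the same start codon.

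Few genes were called in TE. At a threshold of 0.05 on the Benjamini-Hochberg adjusted p-value of the interaction (quasi-likelihood test of edgeR), 22 of 5487 genes (0.401%) passed, 13 (0.237%) with a higher and 9 (0.164%) with a lower TE in RPL3L OE cells. *Cox17* and *Gm21987* overlap and have identical counts in all 12 libraries, so these calls rest on the same reads and are described under *Cox17*. The differences were small: the median absolute log2 fold change in TE among the calls was 0.39, 2 reached a log2 fold change of 1, and the median over all tested genes was -0.00112. An unadjusted p-value under 0.05 was found for 511 genes. By contrast, 1615 genes (29.4%) differed in RNA-seq, 804 (14.7%) higher and 811 (14.8%) lower in RPL3L OE cells, and 1076 genes (19.6%) differed in Ribo-seq, 511 (9.31%) higher and 565 (10.3%) lower. The 3 libraries of each group did not overlap in 39.7% of all tested genes in RNA-seq and in 34.3% in Ribo-seq, which is the background for every statement on overlap that follows.

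Footprints largely followed the mRNA. Without *Rpl3l*, whose cDNA differs by design, 1614 genes were called in RNA-seq, and the Ribo-seq difference of 91.6% of them had the same sign. Of these genes, 747 were also called in Ribo-seq in the same direction and 1 in the opposite direction. Across all 5486 genes Pearson's r between the log2 fold changes of the 2 assays was 0.755, where genes are not independent and share the 12 libraries. Among genes called in RNA-seq the median absolute log2 fold change was 0.293 in RNA-seq and 0.216 in Ribo-seq, and among the 1075 genes called in Ribo-seq it was 0.268 and 0.313. The assay that selected the genes thus had the larger values in both cases. The gene called in opposite directions was *Zfhx3*, for a large homeobox transcription factor.

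**Figure D1:**
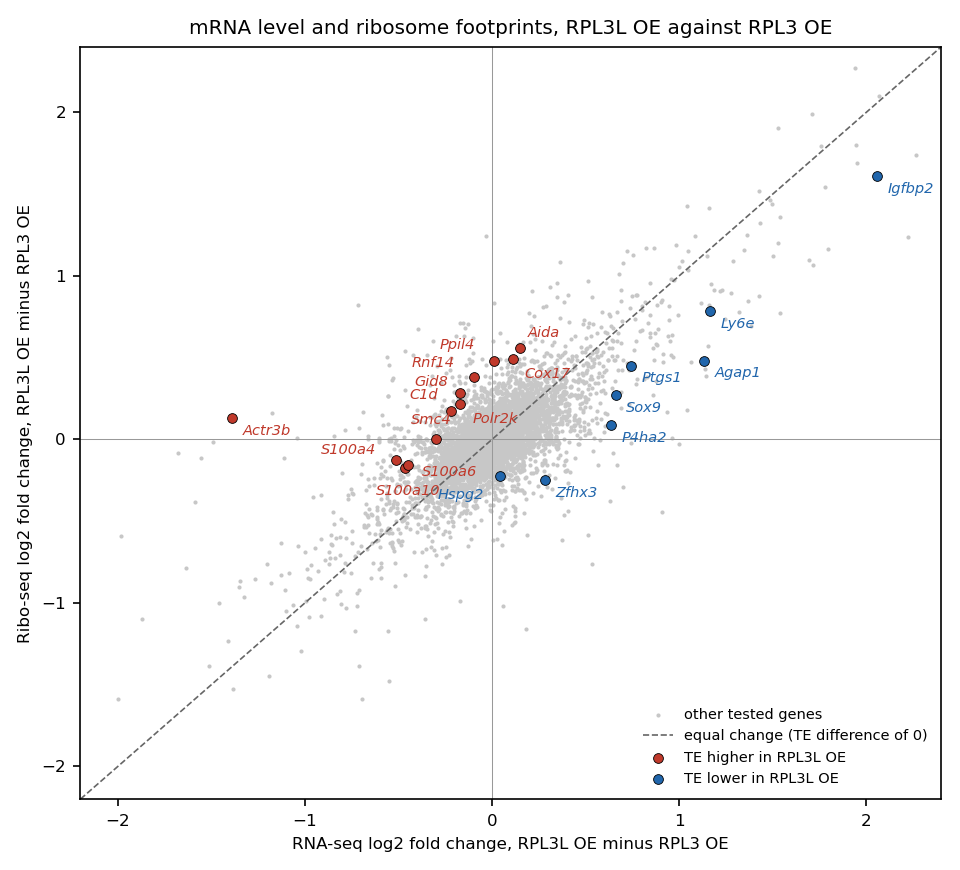
Log2 fold changes of RPL3L OE over RPL3 OE cells in RNA-seq (x axis) and Ribo-seq (y axis) for the tested genes, 1 point per gene, with the TE calls in red (higher) and blue (lower) and a dashed line where both assays change equally. *Rpl3l* and 8 other genes lie outside the axes, *Gm21987* lies under *Cox17*, and most genes with a lower TE sit to the right of the line at a higher mRNA level, whereas those with a higher TE sit above it with a lower or uncalled mRNA difference for all but *Aida*.

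The TE calls fell into patterns by assay. Of the 9 genes with a lower TE in RPL3L OE cells, 8 had a higher mRNA level there. In 6 of these footprints also rose but by less than the mRNA, in *P4ha2* they were not called and in *Zfhx3* they fell. The remaining gene, *Hspg2*, was called in Ribo-seq and not in RNA-seq. Of the 13 with a higher TE, 6 had a higher Ribo-seq level with no call in RNA-seq, 6 had a lower mRNA level, with footprints that fell less (2) or were not called (4), and *Aida* rose in both assays. TE contains the RNA-seq level with a negative sign, so the RNA-seq and TE values of a gene are not independent.

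*Rpl3l* itself had the lowest TE difference. Its RNA-seq level (ENSMUST00000170239.8, chr17:24727820-24736143) was 4483, 4540 and 4387 CPM in RPL3L OE replicates 1 to 3 and rested on 1, 7 and 3 counts in the RPL3 OE libraries. Ribo-seq gave 2615, 2725 and 2555 CPM in RPL3L OE against 13.7, 8.97 and 8.57 CPM in RPL3 OE cells, on 30, 26 and 14 counts. The groups lie far apart in both assays. The log2 fold change in TE was -4.28 (SE 0.39, adjusted p = 3.33e-13, edgeR), a value that rests on the few RNA-seq counts of the RPL3 OE cells: leaving out RPL3 OE replicate 1 gave -3.73, and leaving out replicate 2 of the same cells gave -5.29. Control cells, which carry neither cDNA, had 9, 5 and 5 RNA-seq counts and 29, 14 and 25 Ribo-seq counts on the same transcript. Of the 1348 windows of 28 bases in this transcript, 0 are identical to a stretch of an annotated *Rpl3* transcript, 1 is within 1 mismatch and 12 are within 2 mismatches. The source of the Ribo-seq counts in cells without the RPL3L cDNA was not tested, and reads of the viral cDNA and of the endogenous gene cannot be told apart.

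Besides *Rpl3l*, the clearest TE differences were those of *Igfbp2*, for a secreted protein that binds insulin-like growth factors, and *Agap1*, for a GTPase-activating protein of ARF proteins that acts in endosomal traffic. The mRNA of *Igfbp2* was at 1135, 1217 and 1236 CPM in RPL3L OE against 295, 290 and 279 CPM in RPL3 OE cells. Its footprints were at 1684, 1580 and 1588 CPM and at 531, 520 and 538 CPM, respectively. Both assays were higher in all 3 RPL3L OE libraries, but the ratio of mean Ribo-seq to mean RNA-seq CPM was 1.35 in RPL3L OE against 1.84 in RPL3 OE cells. This is a log2 fold change in TE of -0.44 (SE 0.07, adjusted p = 2.23e-05, edgeR), from 2.06 in RNA-seq and 1.61 in Ribo-seq. *Agap1* mRNA was at 313, 292 and 303 CPM in RPL3L OE against 142, 136 and 136 CPM in RPL3 OE cells. The footprints of *Agap1* were at 72.7, 73.0 and 79.9 CPM and at 54.7, 53.5 and 53.9 CPM, with no overlap of the groups in either assay. Its TE differed by -0.65 (SE 0.11, adjusted p = 0.000240, edgeR), with log2 fold changes of 1.13 in RNA-seq and 0.48 in Ribo-seq.

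Genes of collagen processing and the basement membrane were also among those with a lower TE. *P4ha2*, for a catalytic subunit of the prolyl 4-hydroxylase that modifies collagen, had an mRNA level of 75.3, 83.1 and 84.4 CPM in RPL3L OE against 53.3, 55.8 and 48.3 CPM in RPL3 OE cells. Its Ribo-seq levels overlapped, with 144, 142 and 130 CPM against 134, 132 and 125 CPM. The log2 fold change of *P4ha2* in TE was -0.55 (SE 0.11, adjusted p = 0.00524, edgeR). *Hspg2*, for perlecan, a proteoglycan of basement membranes, had 432 ± 16.3 CPM in RNA-seq in RPL3L OE against 419 ± 15.7 CPM in RPL3 OE cells (SD, n = 3). Its footprints were at 626, 561 and 620 CPM in RPL3L OE cells, below the 730, 693 and 688 CPM of RPL3 OE cells, and the log2 fold change in TE was -0.27 (SE 0.07, adjusted p = 0.0414, edgeR). With GC content and transcript length removed, an alternative chosen after seeing the data, it was -0.13 (adjusted p = 0.602, edgeR).

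The remaining genes with a lower TE encode membrane-bound and nuclear proteins. *Ptgs1*, for cyclooxygenase 1 of prostaglandin synthesis, and *Ly6e*, for a GPI-anchored surface protein, rose in RNA-seq by 0.74 and 1.17 and in Ribo-seq by 0.45 and 0.79. Their log2 fold changes in TE were -0.29 (SE 0.07, adjusted p = 0.0213) and -0.38 (SE 0.08, adjusted p = 0.0129; edgeR). *Sox9*, for a transcription factor of cartilage, had 130 ± 4.80 CPM in RNA-seq in RPL3L OE against 82.6 ± 3.87 in RPL3 OE cells (SD, n = 3), and 338 ± 7.43 and 278 ± 20.1 in Ribo-seq. Its TE differed by -0.39 (SE 0.09, adjusted p = 0.0144, edgeR). *Zfhx3* mRNA was at 92.2, 84.6 and 92.5 CPM in RPL3L OE and 72.5, 65.4 and 81.6 CPM in RPL3 OE cells. The footprints of *Zfhx3* lay the other way, at 79.8, 80.3 and 76.8 CPM and at 102, 90.1 and 90.0 CPM. The groups overlapped in neither assay, and the log2 fold change in TE was -0.53 (SE 0.12, adjusted p = 0.0199, edgeR).

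**Figure D2:**
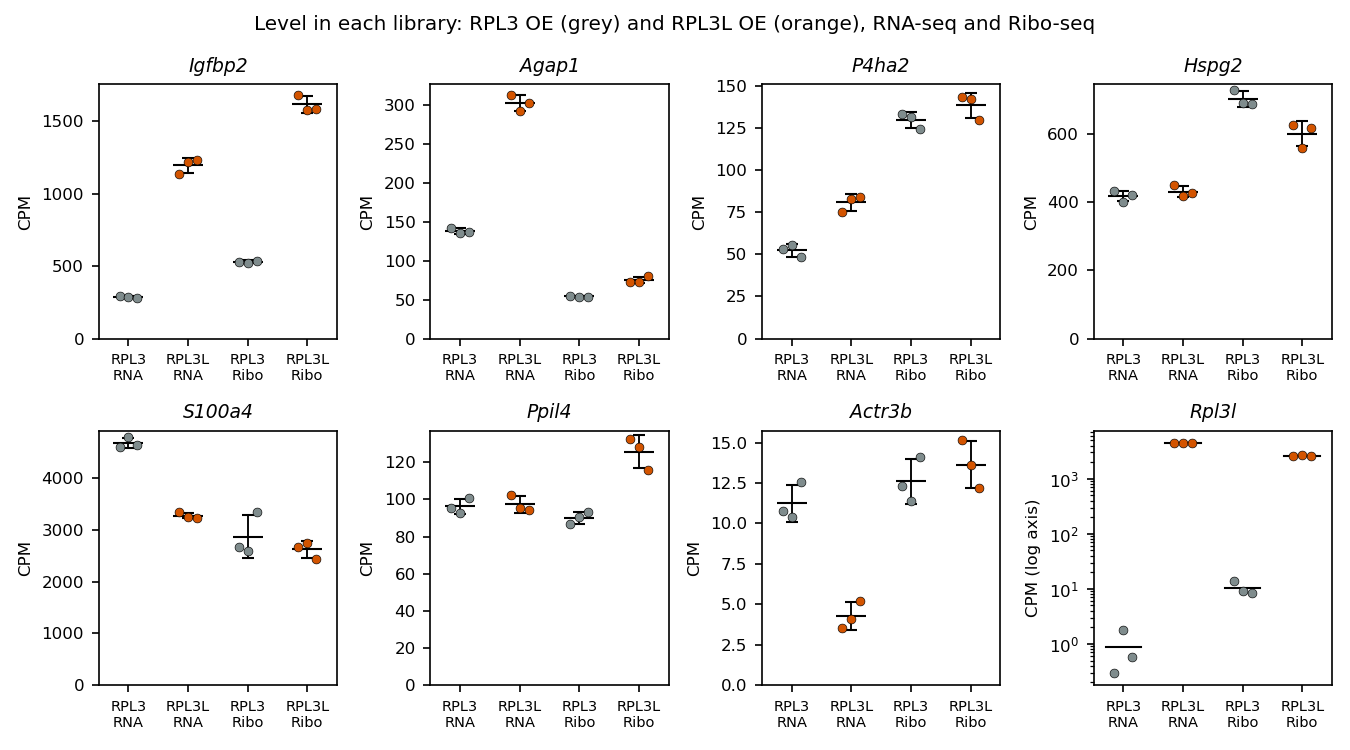
Level in each library (points), with the mean and SD of the 3 libraries of a group (lines; mean only for *Rpl3l*, which has a log axis), in CPM for 8 genes. In *Igfbp2*, *Agap1* and *P4ha2* the mRNA is higher in RPL3L OE cells by more than the footprints are, in *Ppil4* only the footprints differ, and in *S100a4* and *Actr3b* the mRNA is lower in RPL3L OE cells while footprints overlap.

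Among the genes with a higher TE, *Actr3b*, for an actin-related protein of the ARP2/3 family, had the largest value and the lowest counts (13 to 66 per library). Its mRNA was at 3.55, 4.05 and 5.20 CPM in RPL3L OE against 10.8, 10.4 and 12.6 CPM in RPL3 OE cells, whereas its footprints overlapped (15.1, 13.6 and 12.2 against 12.3, 11.4 and 14.1 CPM). The log2 fold change in TE was 1.52 (SE 0.34, adjusted p = 0.0190, edgeR). *Smc4*, for a condensin subunit that compacts mitotic chromosomes, followed the same pattern on higher counts, with 786 ± 26.4 CPM against 964 ± 48.6 CPM in RNA-seq and 425 ± 24.0 against 426 ± 33.1 CPM in Ribo-seq (SD, n = 3). Its TE differed by 0.30 (SE 0.07, adjusted p = 0.0332, edgeR).

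A further group consisted of *S100a4*, *S100a6* and *S100a10*, for small calcium-binding proteins that act on the cytoskeleton and the plasma membrane. *S100a4* mRNA was at 3341, 3250 and 3238 CPM in RPL3L OE against 4594, 4792 and 4640 CPM in RPL3 OE cells. The footprints of *S100a4* gave 2671, 2752 and 2440 CPM in RPL3L OE against 2665, 2592 and 3339 CPM in RPL3 OE cells. The footprints overlapped, and replicate 3 of the RPL3 OE cells was the highest. The log2 fold changes in TE were 0.39 for *S100a4* (SE 0.08, adjusted p = 0.00524), 0.29 for *S100a6* (SE 0.07, adjusted p = 0.0432) and 0.29 for *S100a10* (SE 0.07, adjusted p = 0.0448; edgeR). *S100a6* and *S100a10* footprints were lower in RPL3L OE cells (-0.16 and -0.18), but by less than the mRNA (-0.45 and -0.46), and RPL3 OE replicate 3 was the highest library for both. Of the 7 tested genes of this family, which all lie on chromosome 3 and were listed after the values of these calls had been seen, 6 had a lower mRNA level in RPL3L OE cells past the threshold (14.8% of all tested genes did). The TE differences of the 4 others were between -0.20 and 0.13 and were not called.

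In most of the remaining calls with a higher TE the footprints rose and the mRNA was not called. *Ppil4*, for a peptidyl-prolyl isomerase-like protein of the nucleus, had an mRNA level of 102, 95.3 and 94.3 CPM in RPL3L OE against 95.3, 92.9 and 101 CPM in RPL3 OE cells. Its footprints were at 133, 128 and 116 CPM and at 86.6, 90.4 and 93.0 CPM, with no overlap, and TE differed by 0.47 (SE 0.11, adjusted p = 0.0199, edgeR). *Rnf14*, for an E3 ubiquitin ligase that acts at stalled ribosomes, had footprints at 82.4, 87.7 and 90.4 CPM in RPL3L OE against 65.2, 67.6 and 67.9 CPM in RPL3 OE cells, while its mRNA levels overlapped (129 ± 14.8 and 138 ± 8.11 CPM; SD, n = 3). The log2 fold change of *Rnf14* in TE was 0.48 (SE 0.12, adjusted p = 0.0404, edgeR). *Gid8*, for a subunit of the CTLH ubiquitin ligase (0.45, SE 0.11), *Aida*, for an axin-interacting protein (0.41, SE 0.10), *C1d*, for a nuclear cofactor of the RNA exosome (0.39, SE 0.10), *Polr2k*, for a small subunit shared by the RNA polymerases (0.39, SE 0.10), and *Cox17*, for a copper chaperone of cytochrome c oxidase (0.38, SE 0.09), had adjusted p-values between 0.0283 and 0.0414 (edgeR). With GC content and transcript length removed, *Polr2k* was at 0.19 (adjusted p = 0.635) and *Cox17* at 0.22 (adjusted p = 0.485), and *Cox17* was at 0.24 without RPL3 OE replicate 2 (adjusted p = 0.565; edgeR). Among these 5, *C1d* was the gene whose mRNA fell past the threshold (-0.22) and whose Ribo-seq difference (0.17) did not pass it.

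Just outside the threshold, with an adjusted p-value of 0.0588 each (edgeR), were 3 genes that are named for this place and were chosen after their values were seen: *Nid1*, for the basement membrane protein nidogen (-0.25), *Mrps18c*, for a mitochondrial ribosomal protein (0.35), and *Rpl22l1*, for a paralog of RPL22 (0.28). At the edge of the count filter, *Zfp93* and *Slc25a45* were just inside with a mean Ribo-seq count of 10, and *Spry1* and *Fzd4* just outside with 9.83.

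Calls of TE depended on single replicates. When RNA-seq and Ribo-seq libraries of the same number were left out together, the number of calls was 10, 6 and 7 without RPL3L OE replicates 1, 2 and 3, and 8, 4 and 47 without RPL3 OE replicates 1, 2 and 3. *Rpl3l*, *Igfbp2* and *Agap1* were called in all 6 of these fits and under all 15 alternatives tried, these 6 included, *P4ha2* in 5 of 6, and the other genes in 0 to 3 of 6. The cDNA of *Rpl3l* differs by design and it passed the RNA-seq count filter through the RPL3L OE libraries, so its calls are descriptions. All 22 genes kept their direction in each of these fits. Without RPL3 OE replicate 3, the TE difference of *S100a4* was 0.52, and in the other 5 fits it was at least 0.30. The Wald test of DESeq2 called 3 genes, *Rpl3l*, *Igfbp2* and *Agap1*.

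**Figure D3:**
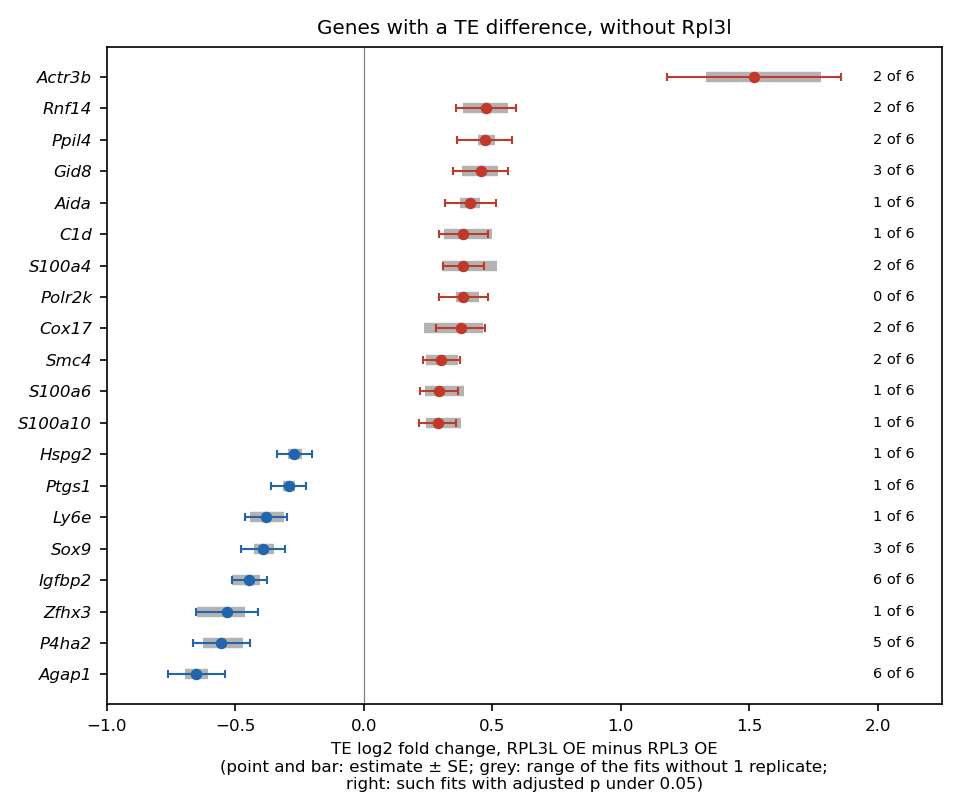
Log2 fold change in TE (point) with its SE (bar), the range over the 6 fits that each left out 1 replicate (grey) and the number of those fits in which the gene was called, for the TE calls other than *Rpl3l* and *Gm21987*. *Igfbp2* and *Agap1* are called in 6 of 6 fits, *P4ha2* in 5 and the others in at most 3, although no range reaches 0.

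Set beside the empty-vector control cells in a model of all 18 C2C12 libraries, the TE of each overexpression gave the following values for some of the called genes. Both contrasts use the same control libraries, so they are given side by side without a comparison. For *Igfbp2* the TE difference (log2) from control was -0.34 (SE 0.06) in RPL3L OE against 0.10 (SE 0.07) in RPL3 OE cells. The values of *Agap1* were -0.55 (SE 0.10) and 0.10 (SE 0.11), those of *Sox9* -0.40 (SE 0.08) and -0.02 (SE 0.08), and those of *Ppil4* 0.54 (SE 0.11) and 0.06 (SE 0.11). Among the S100 genes, *S100a4* was at -0.03 (SE 0.08) in RPL3L OE and -0.43 (SE 0.08) in RPL3 OE cells, *S100a6* at -0.09 (SE 0.08) and -0.39 (SE 0.08), and *S100a10* at 0.02 (SE 0.08) and -0.28 (SE 0.08). The values of *Polr2k* were 0.70 (SE 0.11) and 0.31 (SE 0.11). Those of *P4ha2* were -0.35 (SE 0.11) and 0.19 (SE 0.11), and those of *Hspg2* -0.32 (SE 0.07) and -0.06 (SE 0.07). *Actr3b*, on low counts, was at 1.14 (SE 0.34) and -0.39 (SE 0.32).

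Genes of the translation apparatus had few TE calls, as did the tested genes at large. Of 31 tested proteins of the large subunit, 0 were higher and 1, *Rpl3l*, was lower in TE, and of 14 proteins of the small subunit 0 were called, against 0.401% of all genes. The median log2 fold change in TE was 0.08 and 0.11, and 28 of the 31 and 12 of the 14 were above 0. Their mRNA levels lay lower in RPL3L OE cells, with 12 of 31 and 5 of 14 past the threshold (14.8% of all genes) and medians of -0.06 and -0.10, while the Ribo-seq medians were -0.009 and 0.00162. *Rpl22l1* mRNA fell most (-0.36, adjusted p = 8.78e-08, edgeR). Ribosomal protein genes have many near-identical pseudogenes, and multiple mappings were allowed, so single values are uncertain. None of the 33 tested translation factors, 32 ribosome assembly genes, 9 aminoacyl-tRNA synthetases and 47 mitochondrial ribosomal proteins was called in TE. At 0.401% of all genes, lists of this size would seldom hold a call. The smallest unadjusted p-values among the translation factors were those of *Eif1ax*, for an initiation factor of start codon scanning (0.21, adjusted p = 0.221), and *Eif5*, for the factor that triggers GTP hydrolysis at the start codon (0.14, adjusted p = 0.52, edgeR).

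Of the 23 tested genes of ribosome collision and quality control, 1 was higher in TE, *Rnf14*, and 0 were lower (0.237% and 0.164% of all tested genes were). A single call in a list is a description of that gene. *Atf4*, for the transcription factor at the center of the integrated stress response, rose in RNA-seq by 0.22 (SE 0.04, adjusted p = 1.64e-05) with a Ribo-seq difference of 0.00 (adjusted p = 0.978), and its TE difference of -0.21 did not pass the threshold (adjusted p = 0.349, edgeR). None of the 8 tested genes of that response was called in TE, where 0.401% of all tested genes were.

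Of 12 tested genes of muscle contraction, 6 rose in RNA-seq (14.7% of all tested genes did) and 6 in Ribo-seq (9.31% of all), and 0 fell. Of 10 genes of muscle differentiation, 5 rose in RNA-seq, and 6 rose and 1 fell in Ribo-seq. None of either list was called in TE, where 0.401% of all genes were, a share at which lists of this size would seldom hold a call. *Cdh15*, for the cadherin of myoblasts, rose by 0.76 in RNA-seq and 0.55 in Ribo-seq, with a TE difference of -0.21 (SE 0.07, adjusted p = 0.22, edgeR). *Tnnt2*, for a troponin T of the thin filament, rose by 0.20 and 0.38, with a TE difference of 0.19 (SE 0.09, adjusted p = 0.524, edgeR). *Mef2c*, for a transcription factor of muscle differentiation, was the gene that fell in Ribo-seq (-0.61, adjusted p = 0.0158), with 0.02 in RNA-seq (edgeR).

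Genes of the matrix and of the actin cytoskeleton held 6 of the TE calls. Of 31 tested genes of the extracellular matrix and collagen processing, 0 were higher and 2 lower in TE, *P4ha2* and *Hspg2* (0.164% of all tested genes were lower), with a list median of -0.07. In the same list 4 rose and 14 fell in RNA-seq (14.7% and 14.8% of all genes), and 3 rose and 16 fell in Ribo-seq (9.31% and 10.3%), so the 2 genes lower in TE do not share the direction of most of the list in mRNA. Of 28 genes of the actin cytoskeleton and focal adhesions, 4 were higher and 0 lower in TE (*Actr3b*, *S100a4*, *S100a6* and *S100a10*; 0.237% of all tested genes were higher), with a list median of 0.04. These lists were drawn up with earlier results of these libraries known, so the counts are descriptions.

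Histone genes had the highest list median in TE, 0.23, with 24 of 29 above 0 and none called (0.401% of all tested genes were). In RNA-seq 9 fell (14.8% of all tested genes did) and 0 rose in RPL3L OE cells, with a median of -0.26, whereas the Ribo-seq median was 0.00184. Multiple mappings were allowed, so histone genes may share reads and cannot be counted as separate observations. *Hist1h3b* and *Hist1h3f*, for example, had 4098, 5192 and 3570 and 4053, 5238 and 3626 Ribo-seq counts in RPL3 OE replicates 1 to 3. The lowest TE difference of the list was that of *H2afx* (-0.26, adjusted p = 0.148, edgeR). *Hist1h4m*, for a histone H4, had 24, 29 and 40 RNA-seq counts in RPL3 OE cells and 11, 12 and 20 in RPL3L OE cells, against 2901 to 4257 Ribo-seq counts per library. The mRNAs of replication-dependent histones carry no poly(A) tail, and the RNA-seq libraries were made from poly(A)-selected RNA, so their RNA-seq level is not the level of the mRNA that is translated. Its TE difference was 1.05 (SE 0.30, adjusted p = 0.108, edgeR).

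The other lists had no more than 1 call, where 0.401% of all tested genes were called and most lists would hold none. *Polr2k* was called among 16 subunits of the RNA polymerases. No gene was called in TE among 24 genes of the respiratory chain and ATP synthase, 26 of the proteasome, 43 chaperones, 30 genes of the cell cycle and replication, 16 immediate-early genes, 144 zinc finger genes with a Zfp name, 70 genes with a solute carrier name and 6 of one-carbon metabolism. Their median TE differences were 0.06, 0.00694, 0.02, -0.02, -0.08, -0.006, -0.09 and 0.10, respectively. Of the 70 solute carrier names 22 were above 0, and of the 16 immediate-early genes 4.

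**Figure D4:**
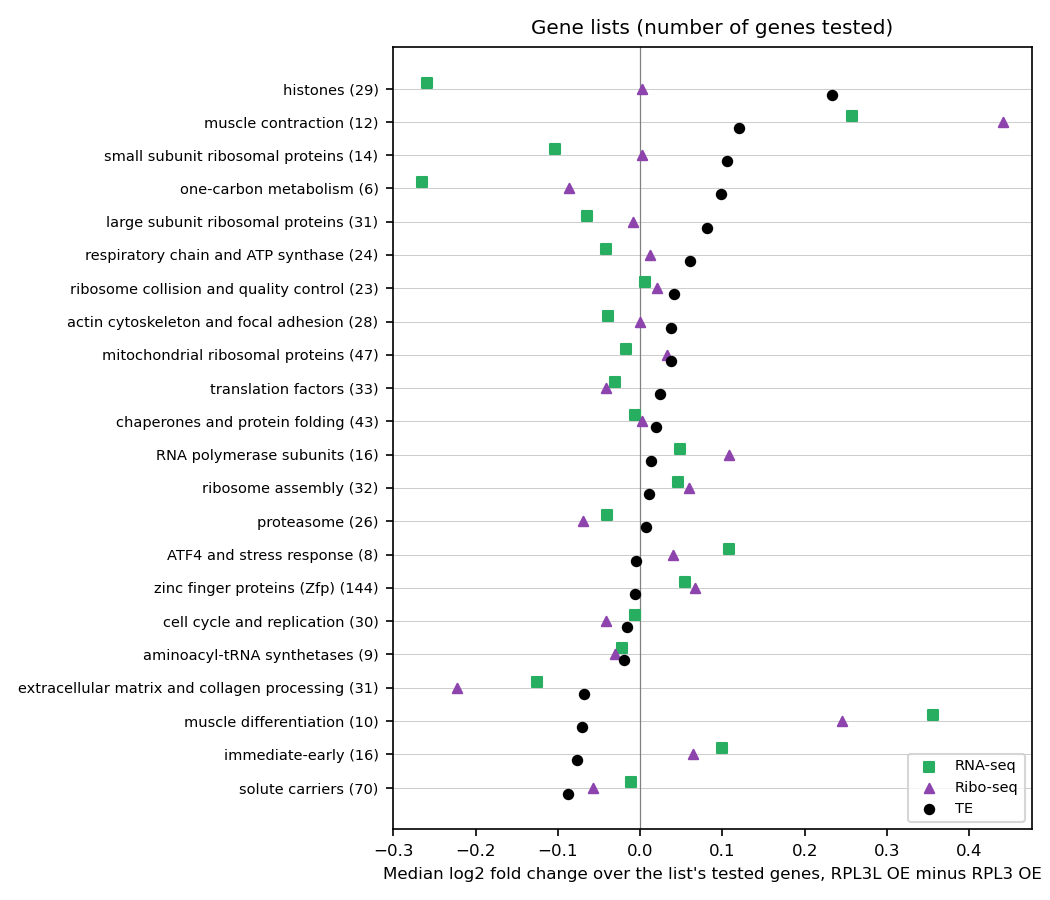
Log2 fold change of RPL3L OE over RPL3 OE cells in RNA-seq, Ribo-seq and TE as the median over the tested members of each gene list, whose number stands in parentheses. In TE the histones lie at 0.23 and the other lists between -0.09 and 0.12, while the muscle lists lie above 0 in RNA-seq and Ribo-seq and the matrix list below it.

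The largest changes of level were carried by both assays or rested on few counts. *Sfrp2*, for a secreted antagonist of WNT signaling, differed by -2.05 in RNA-seq and -3.31 in Ribo-seq. Both its levels were low, and its mRNA was at 1.64, 1.01 and 1.58 CPM in RPL3L OE and 4.37, 7.53 and 5.90 CPM in RPL3 OE cells. *Cxcl12*, for a chemokine of stromal cells, fell in both assays (-1.59 in Ribo-seq), with mRNA levels of 9.27, 13.4 and 13.3 CPM in RPL3L OE against 42.2, 49.3 and 52.9 CPM in RPL3 OE cells. *Art3*, for an ADP-ribosyltransferase of the cell surface, had 26, 28 and 30 RNA-seq counts in RPL3L OE against 2, 0 and 0 in RPL3 OE cells. *Cyp11a1*, for the enzyme that starts steroid synthesis, and *Cd40*, for a receptor of the TNF receptor family, rose by 3.60 and 3.45 in RNA-seq and by 1.77 and 2.62 in Ribo-seq. Their RNA-seq counts in RPL3 OE cells were 5, 0 and 5 for *Cyp11a1* and 5, 1 and 6 for *Cd40*. In RPL3L OE cells they were 49, 31 and 41, and 29, 41 and 61, respectively. Like *Art3*, both passed the RNA-seq count filter through the RPL3L OE libraries. *Adamtsl1*, for a secreted ADAMTS-like protein, differed by -1.99 in RNA-seq, and *Mfap5*, for a microfibril protein, by -1.59 in Ribo-seq. The Ribo-seq difference of *Adamtsl1* (-0.59) was not called (adjusted p = 0.178, edgeR). RNA-seq counts in RPL3L OE cells were 6, 4 and 2 for *Adamtsl1* and 7, 4 and 16 for *Mfap5*. In RPL3 OE cells they were 16, 13 and 22, and 12, 9 and 25, respectively. Both genes passed the RNA-seq count filter through the RPL3 OE libraries. None of these 7 genes was called in TE (adjusted p between 0.157 and 0.638 for *Cyp11a1*, *Sfrp2*, *Cxcl12*, *Mfap5*, *Art3* and *Adamtsl1*, and 0.74 for *Cd40*, edgeR).

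The mRNAs with a higher TE in RPL3L OE cells were shorter in coding length and richer in lysine codons than those with a lower TE. With *Cox17* and *Gm21987*, which have the same start codon and coding length, both counted, their median coding length was 423 nt, against 1611 nt in the mRNAs with a lower TE and 1404 nt in all tested genes with a coding sequence. The median share of lysine codons was 10.9%, 4.93% and 5.74%, that of proline codons 4.47%, 7.64% and 5.46%, and the median GC content of the transcript 48.3%, 55.3% and 50.4%, respectively. Across genes the relation was weak. The Spearman correlation of the TE difference was 0.231 with the share of lysine codons (5381 genes), -0.143 with that of proline codons, -0.104 with that of alanine codons and 0.0781 with that of asparagine codons, -0.193 with GC content and -0.146 with coding length (5387 genes). The genes share the same 12 libraries and these features go together, so the values are descriptions.

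In 5 bins of genes of about equal size, from the lowest to the highest share of lysine codons, the median TE difference was -0.056, -0.032, -0.008, 0.004 and 0.063, and 9 of the 13 calls with a higher TE lay in the highest bin. By GC content it went from 0.058 in the lowest to -0.046 in the highest bin. Single libraries differed in the same features within a group. The Spearman correlation between the share of lysine codons and the deviation of a library from the mean of its assay was between -0.218 and 0.0132 in the RPL3 OE Ribo-seq libraries and between 0.00564 and 0.151 in those of RPL3L OE cells, which overlap, and in RNA-seq RPL3L OE replicate 3 stood apart at -0.169. With GC content that library stood at 0.202, above the -0.107 to 0.0333 of the 5 other RNA-seq libraries. For the share of alanine codons the Ribo-seq groups did not overlap, with 0.0271 to 0.0847 in RPL3 OE and -0.0795 to -0.0603 in RPL3L OE cells. Alanine was not alone in this, since the Ribo-seq groups did not overlap for GC content either (-0.022 to 0.147 and -0.0635 to -0.0276, respectively). In RNA-seq the groups did not overlap for transcript length (-0.114 to -0.0567 and 0.0507 to 0.0952), nor for coding, leader and trailer length. With GC content and transcript length removed from each library, an alternative chosen after seeing the data, 9 genes were called in TE, 2 higher (*Actr3b* and *Rnf14*) and 7 lower. The part of base composition in the calls was not tested beyond this.

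**Figure D5:**
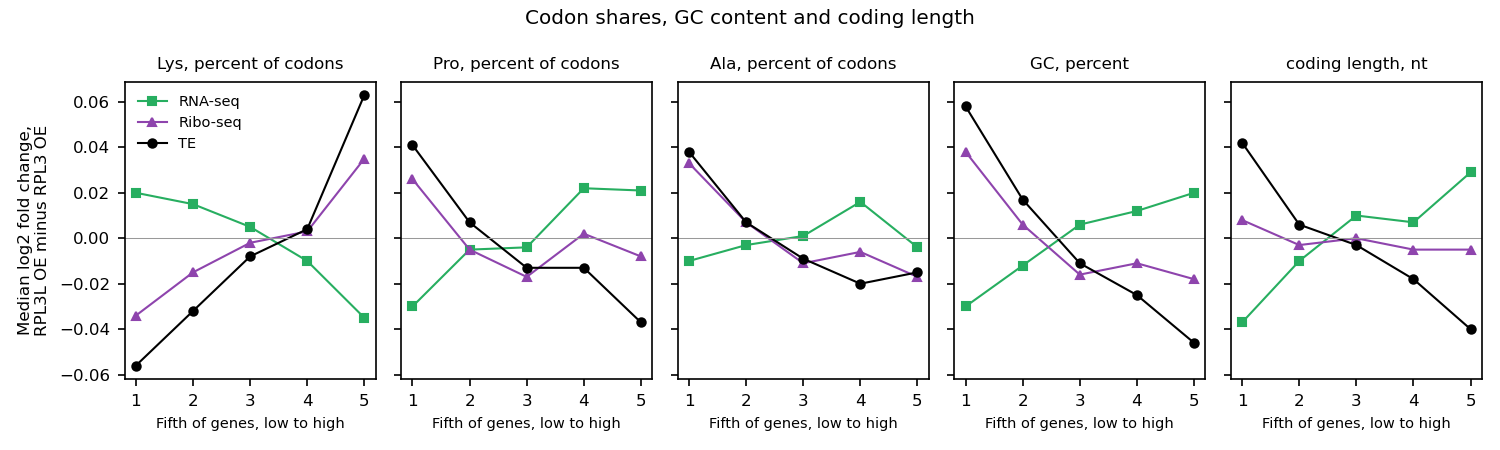
Median log2 fold change of RPL3L OE over RPL3 OE cells in RNA-seq (green), Ribo-seq (purple) and TE (black) in 5 bins of about equal size of the tested genes, ordered by codon shares, GC content or coding length. The TE median rises from -0.056 to 0.063 with the share of lysine codons and goes from 0.058 to -0.046 with GC content.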

How the data were processed

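Counts of RNA-seq and Ribo-seq reads per transcript were analysed as the authors deposited them. The authors trimmed reads with cutadapt, removed those of rRNA, aligned the rest with STAR to GRCm38.p6 or mm10 with multiple mappings allowed, and counted them with featureCounts. RNA-seq libraries came from poly(A)-selected RNA with a directional kit. Tool versions, the strand setting of the counting and a separate account of how RNA-seq reads were aligned and counted were not given in the sources used here. All 23877 transcripts stand on 2 identical lines, of which 1 was kept. Of them 23662 matched GENCODE M21 by identifier, all on the plus strand. Each gene was represented by its transcript with the highest mean count, which can share reads with other isoforms, and 52 tested genes have counts equal to those of another gene.

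Genes averaging 10 or more counts in both assays entered edgeR 4.0.16 (R 4.3.3; quasi-likelihood test, TMM within each assay, group, assay and their interaction, two-sided, Benjamini-Hochberg over 5487 genes). The procedure was tested on simulated data. Alternatives used DESeq2 1.42.0, other filters and left-out replicates. Figures used matplotlib 3.10.9. The members and lists were chosen with earlier results of these data known. Named were *Rpl3l*, all TE calls, of lists without a call up to 4 members with the smallest p, the 3 largest changes per assay and direction, and genes at the filter. Libraries were not paired by replicate number in the main model, since the labels do not say whether the numbers pair them. Data of hearts, tRNA and m6A were not used here.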

Additional observations from a re-analysis of the deposited data

How the results depend on the processing

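The number of TE calls, 22 in the analysis reported, was 3 with DESeq2 and 56 transcripts of 26 genes with all transcripts tested. It was 9 with a term for the replicate number within each assay. A term that pairs the RNA-seq and Ribo-seq library of the same group and number, a pairing the labels do not give, gave 21 calls. Of these, 19 were among the 22. With GC content and transcript length removed the number was 9, and it was between 4 and 47 when a replicate was left out. The 47 calls (35 higher) came without RPL3 OE replicate 3 and the 4 without RPL3 OE replicate 2. It was 25 with library totals, 17 with a total count of at least 10, 26 with a mean count of at least 50 and 15 with all 18 C2C12 libraries. Testing all transcripts gave 3879 calls in RNA-seq and 2501 in Ribo-seq, since a gene is then counted with each isoform. Leaving out a replicate gave 1305 to 1413 and 781 to 987. No TE difference of a called gene changed direction under these alternatives. Deviations of same-numbered libraries from their group means correlated between -0.0556 and 0.0563 across the assays of a group, and 6 of 12 libraries correlated best with their own number. With 3 libraries per group and correlations this small, these values cannot tell whether the numbers pair the libraries. The causes of these shifts were not tested. The median SE of a TE difference was 0.131, and the parts of depth and of replicate spread in it were not tested.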
